A study of Papio anubis with 28 samples.

Results

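The 10 libraries described here form the Entero arm of a series of 28 bladder libraries from olive baboons (Papio anubis). They were chosen by their labels alone: 5 are titled as ileum and 5 as native bladder. Enterocystoplasty is the operation in which a segment of small bowel is opened into a patch and sewn into the bladder wall. Each of the 5 animals gave both tissues, and the animal codes (ENT_F1, ENT_F2, ENT_F3, ENT_M1 and ENT_M2, numbered 1 to 5 here) tie an ileum graft to the native bladder around it. All 10 libraries carry the genotype WT and the treatment label of an ileum graft, so the native bladders are bladders that hold a graft, not bladders left without surgery. The labels do not state the time since surgery, the ages or the sampled layer of the wall. No ungrafted ileum was analysed here, so traits that the bowel brought with it and changes after grafting cannot be told apart. Messenger RNA selected by its poly-A tail was sequenced from small pieces of tissue, and the values are the authors' counts of reads per gene. The other 18 libraries, 10 of the SIS arm and 8 of the PRS arm, pair native bladder with tissue regenerated on cell-seeded scaffolds (SIS is read here as small intestinal submucosa, and PRS is not spelled out in the sources used here). They serve only to set, with the 10, which genes are tested, the scaling of library sizes and the spread, and for the last comparison.

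The last stretch of the small bowel absorbs what the upper bowel leaves. It takes up conjugated bile acids, takes up vitamin B12 bound to intrinsic factor, exchanges chloride for bicarbonate, packs fat into chylomicrons and makes citrulline from glutamine. The bladder lining, the urothelium, is a stratified barrier that keeps urine and blood apart. The walls below differ as well: bladder stroma arises at the hind end of the embryo under the posterior HOX genes, and small bowel stroma farther forward. Bowel that is placed in the urinary tract is known to go on absorbing solutes from urine.

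Ileum graft and native bladder differed at 2585 of the 17177 genes tested, 15.0% of them, and in both directions about evenly. Counts were compared with edgeR's quasi-likelihood test, adjusted over all genes after Benjamini and Hochberg, and a gene was called at an adjusted p under 0.05. Higher and lower, rose and fell, all mean in the ileum graft relative to native bladder. 1326 genes (7.72%) were higher and 1259 (7.33%) lower. The rises were often very large. Of the higher genes 707 changed at least 4-fold, 248 at least 64-fold and 143 at least 256-fold, against 657, 170 and 76 of the lower genes. For 53 higher genes the 5 native libraries held at most 3 reads, and for 113 lower genes the 5 ileum libraries did. The fold changes of such genes are loosely bounded. The median log2 fold change was 2.18 among the higher and -2.11 among the lower genes, and -0.03 over all genes tested. All 5 ileum libraries lay above all 5 native libraries for 948 genes (5.52%) and below them for 1006 (5.86%), whether or not a gene passed. Of the higher genes 1060 were higher in each of the 5 animals, and of the lower genes 1099 were lower in each. The main test did not pair the tissues of an animal. With the animal as a block in the 28 libraries, edgeR called 2186 genes, 12.7%, and 1933 of the 2585 calls were kept. With the block in the 10 Entero libraries alone, 1357 of the 2585 were kept.

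The higher genes held a large part of the counts of the grafts: 51.5%, 35.7%, 30.4%, 25.4% and 43.4% of all counts in ileum grafts 1 to 5, against 11.5%, 12.02%, 13.5%, 12.2% and 13% in the native bladders of the same animals. The lower genes held 1.62% to 2.46% of counts in ileum grafts, against 8.38% to 14.8% in native bladders. These genes were chosen for the difference, so the shares describe its size and are no test of it. Part of the share of the higher genes was mitochondrial, since 9 of the 13 genes of the mitochondrial genome were higher. All 13 took 33.9%, 16.4%, 16.3%, 13.97% and 18.45% of counts in ileum grafts 1 to 5, against 6.797% to 10.5% in native bladders. Calls were more frequent among abundant genes: 26.2% of 1856 genes with a mean of at least 100 CPM (counts per 1000000, on TMM-scaled library sizes) passed, against 3.97% of 2366 genes under 1 CPM. Among genes at 100 CPM or more, 335 were higher and 152 lower, whereas under 1 CPM 12 were higher and 82 lower. Most of the transcriptome did not pass. For 8878 of the 14592 genes that did not pass, the 95% interval of the difference was bounded by 4-fold on both sides, and for 3932 by 2-fold.

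**Figure D1:**
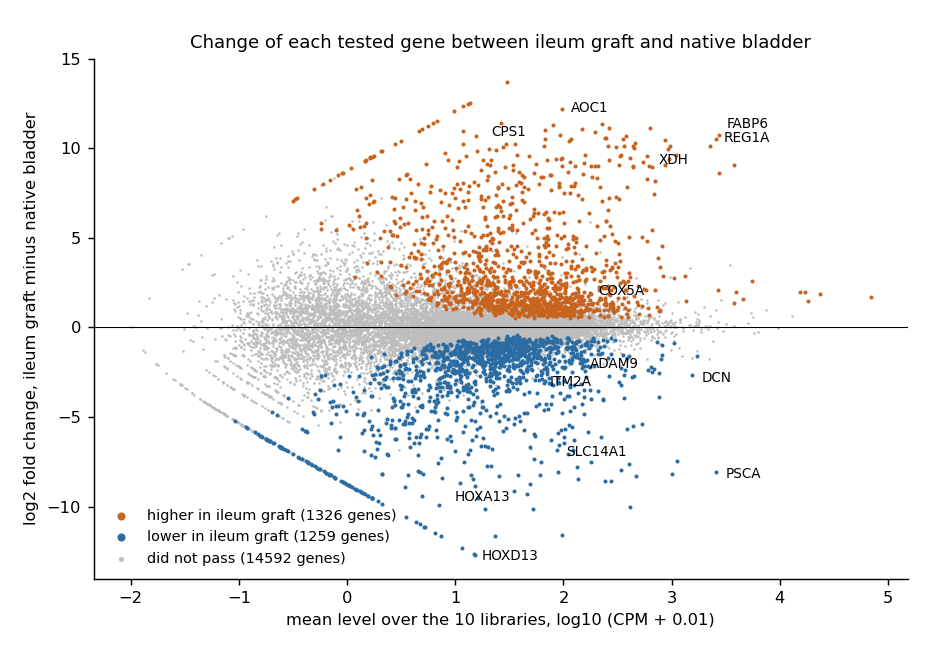
Log2 fold change of each of the 17177 tested genes (ileum graft minus native bladder, vertical) against its mean level over the 10 libraries (log10 CPM, horizontal, with 0.01 CPM added). Genes that passed at adjusted p under 0.05 are coloured, 1326 higher and 1259 lower; the cloud of higher genes reaches farther to the right, at high levels.

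Total counts ran from 20975648 to 29608642 over the 10 libraries. At this depth and on the TMM-scaled sizes 3 counts over a group, the floor used here for a gene without a read, are 0.0296 CPM over the 5 ileum libraries and 0.0216 CPM over the 5 native ones, a limit that covers counting error only. The labels were borne out by the defining markers. All 12 tested genes of intestinal epithelium were higher, and 11 of 13 urothelial genes were lower, while the remaining call was KRT20, a keratin that both linings make. The urothelial list, as a mean of log2 CPM, lay between 0.34 and 2.19 in ileum grafts and between 3.86 and 7.61 in native bladders. Native library 4 stood apart: it gave the 3.86 of the urothelial list, against 6.83 or more in the other native libraries. The same library had the highest means of native bladders for smooth muscle (11.6, against 8.26 to 9.68) and fat cells (7.33, against 2.03 to 3.64). Without it 2454 genes were called, 12 urothelial genes were lower and the intestinal count was again 12. Ileum grafts differed among themselves more than native bladders did. The SD of log2 CPM over 5 libraries had a median over genes of 0.88 in ileum grafts and 0.58 in native bladders, and was larger in native bladders for 23.7% of genes. In bulk tissue, fewer cells of a type and less RNA per cell cannot be told apart.

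**Figure D2:**
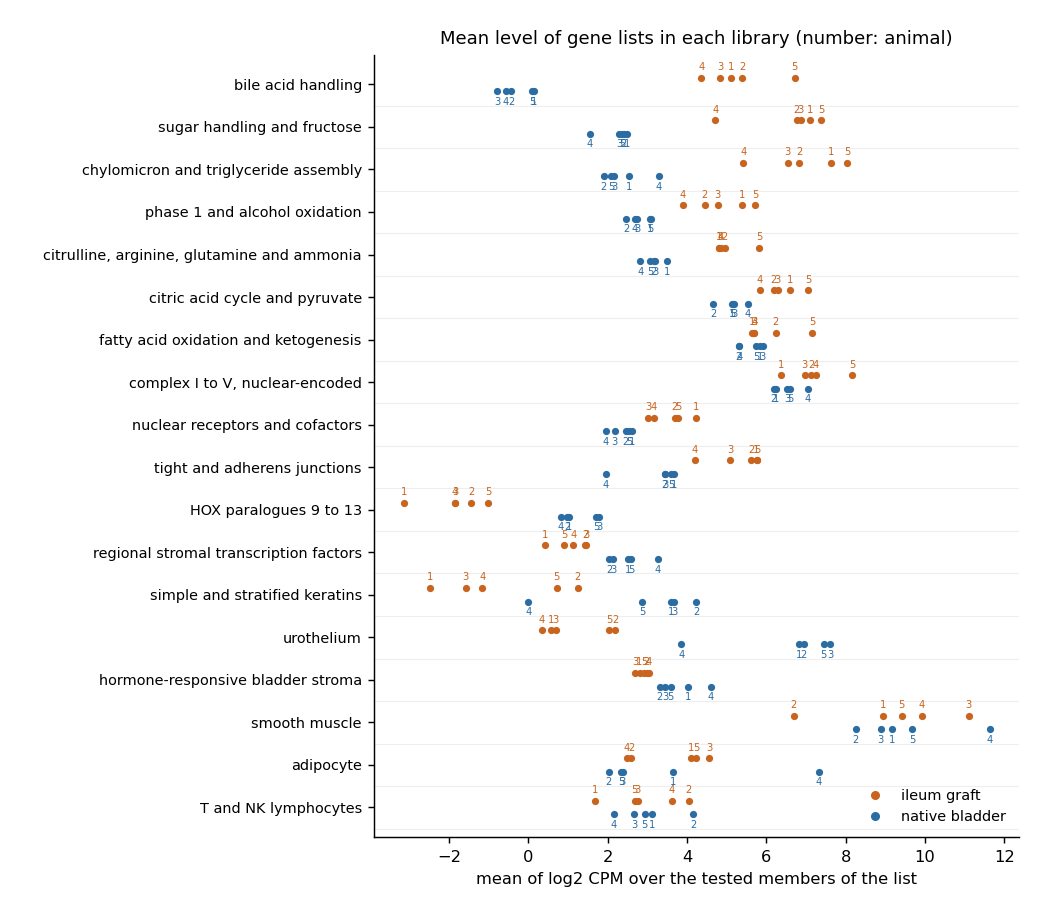
Mean log2 CPM over the tested members of 18 gene lists (horizontal) in each of the 5 ileum grafts (orange, upper row of a list) and 5 native bladders (blue, lower row), with the animal's number at each point. Bile acid, sugar and chylomicron genes separate the groups fully, posterior HOX genes separate them the other way, and smooth muscle, fat cell and T cell genes overlap; native library 4 is the low point for urothelium and the high point for muscle and fat.

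Gains and losses per transcript were ranked by the difference in mean TPM (counts per gene length, scaled to the same total in each library), among genes with a symbol that passed and moved the same way in all 5 animals. Apart from genes of the mitochondrial genome, the 4 largest gains in that ranking were FABP6, REG1A, APOA1 and REG1B. FABP6 (ENSPANG00000014428) binds bile acids inside ileal enterocytes. It stood at 1894, 1146, 5689, 927 and 17772 CPM in ileum grafts 1 to 5, against 3.18, 1.19, 1.78, 3.07 and 6.96 CPM in native bladders 1 to 5 (log2 fold change 10.73, SE 1.31, adjusted p = 1.73e-05). Its level was lowest in ileum graft 4 and highest in graft 5, and every graft was far above every native bladder. REG1A, a secreted lectin of regenerating gut mucosa, stood at 1137, 12801, 2568, 7476 and 1869.7 CPM in ileum grafts 1 to 5, against 0.253, 8.13, 0, 7.11 and 1.86 CPM in native bladders 1 to 5 (log2 fold change 10.54, SE 1.495, adjusted p = 0.000153). REG1A was highest in grafts 2 and 4, and so was its relative REG1B, which stood at 189, 3964, 1683, 5039 and 111 CPM in ileum grafts 1 to 5, against 0.145, 5.08, 0.159, 7.61 and 1.04 CPM in native bladders 1 to 5 (log2 fold change 9.61, SE 1.65, adjusted p = 0.00209).

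The largest losses in the same ranking were PSCA and MMP7. PSCA is a surface protein anchored to the membrane of urothelium, and MMP7 is a matrix protease of glandular and lining epithelia. PSCA (ENSPANG00000005745) stood at 0, 50.9, 23.8, 3.66 and 16.4 CPM in ileum grafts 1 to 5, against 3100.0, 4307, 12069, 1642 and 4532 CPM in native bladders 1 to 5 (log2 fold change -8.08, SE 1.42, adjusted p = 0.000235). Ileum graft 2 held the most PSCA of the 5 grafts, and the same graft held the most MMP7, KRT7 and CRISP3. MMP7 stood at 1.27 to 38.2 CPM in ileum grafts, against 464 to 3539 CPM in native bladders (log2 fold change -7.43, SE 1.29, adjusted p = 0.000210), and CRISP3, a secreted cysteine-rich protein, at 1.07 to 17.6 CPM in ileum grafts, against 409 to 3759 CPM in native bladders (log2 fold change -8.18, SE 1.12, adjusted p = 1.46e-05). SPRR1B, a cross-linked protein of stratified epithelium, changed by a log2 fold change of -8.46. DCN, decorin, a collagen-binding proteoglycan of stroma, stood at 208, 496, 391, 496 and 564 CPM in ileum grafts 1 to 5, against 2366, 1178, 1395, 5511 and 2889 CPM in native bladders 1 to 5 (log2 fold change -2.63, SE 0.55, adjusted p = 0.00142), with no overlap of the groups.

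The most certain changes, those with the smallest p, ranged from moderate to very large. Over the 10 higher genes with a symbol and the smallest p they ran from log2 fold change 3.57 (DHRS11) to 11.37 (SMIM24). Over the 10 such lower genes they ran from -1.77 (ADAM9) to -11.65 (TMEM40). TMEM40 had a mean of 0.00998 CPM in ileum grafts, under the floor of 0.0296 CPM given above, so the size of its fall is loosely bounded. Among higher genes with a symbol they were led by PDZK1, a scaffold that holds carriers in the brush border, at 707, 463, 288, 88.7 and 1005 CPM in ileum grafts 1 to 5, against 4.52, 6.88, 4.12, 7.38 and 4.33 CPM in native bladders 1 to 5 (log2 fold change 6.55, SE 0.50, adjusted p = 4.16e-09). AKR7L, an aldo-keto reductase family member, gave log2 fold change 5.64, SE 0.44, adjusted p = 4.16e-09, and SLC7A7, the basolateral carrier of cationic amino acids, log2 fold change 5.08, SE 0.41, adjusted p = 6.57e-09. CLCN2, a chloride channel of epithelia, had 33.2 to 322 CPM in ileum grafts, against 5.11 to 8.49 CPM in native bladders (log2 fold change 4.52, SE 0.46, adjusted p = 4.38e-07). Ileum graft 4 had the lowest level of PDZK1, SLC7A7 and CLCN2 among the grafts. Among the 10 lower genes with a symbol and the smallest p were HOXA13 and the urea transporter SLC14A1, both described below. Others of the 10 were ITM2A, a type II membrane protein, at 14.4, 11.9, 15.6, 27.5 and 13.3 CPM in ileum grafts 1 to 5, against 102.5, 85.9, 70.3, 137 and 136 CPM in native bladders 1 to 5 (log2 fold change -2.68, SE 0.29, adjusted p = 8.55e-07), and PTPRU, a receptor tyrosine phosphatase, at 2.77, 2.16, 6.33, 2.90 and 1.797 CPM in ileum grafts 1 to 5, against 117, 54.8, 132, 35.01 and 105 CPM in native bladders 1 to 5 (log2 fold change -4.80, SE 0.54, adjusted p = 1.30e-06). ADAM9, a membrane-bound metalloprotease, fell by less but evenly, with 72.6, 72.2, 48.8, 85.3 and 48.2 CPM in ileum grafts 1 to 5, against 223, 188, 249.8, 219 and 233 CPM in native bladders 1 to 5 (log2 fold change -1.77, SE 0.21, adjusted p = 2.41e-06). Of the genes without a symbol, 128 were higher and 86 lower.

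Nearly every bile acid gene tested was higher. Of 10 tested members 9 were higher, 0 lower (8 called by DESeq2 and 6 when blocked by animal), with a median log2 fold change of 7.83. SLC10A2 (ENSPANG00000024151), the sodium-coupled carrier that brings bile acids in from the lumen, stood at 1002, 191, 409, 133 and 1852 CPM in ileum grafts 1 to 5, against 0.687, 0.290, 0.872, 0.461 and 0.889 CPM in native bladders 1 to 5 (log2 fold change 10.13, SE 1.03, adjusted p = 8.57e-06). SLC51A, 1 chain of the basolateral exporter that passes them to the blood, stood at 37.6 to 332 CPM in ileum grafts, against 2.08 to 5.35 CPM in native bladders (log2 fold change 4.97, SE 0.72, adjusted p = 2.56e-05). NR1H4 (FXR), the nuclear receptor that senses bile acids, stood at 164, 78.0, 91.9, 33.5 and 249 CPM in ileum grafts 1 to 5, against 0.578, 0.494, 0, 0.0384 and 0.696 CPM in native bladders 1 to 5 (log2 fold change 8.38, SE 1.102, adjusted p = 9.34e-06). FGF19 is the hormone that this receptor induces in ileum and that slows bile acid synthesis in the liver. It had no read in the 5 native bladders and stood at 0, 1.05, 1.12, 0.951 and 1.70 CPM in ileum grafts 1 to 5, at least 44.7-fold higher if native bladder is set at 3 counts over the group, the floor given above. FGF19 was low for a gene that passed: 98 reads in all, none of them in graft 1. Blocked by animal, its adjusted p was 0.14, and without any 1 of ileum grafts 2 to 5 it was too low to be tested. ABCC2, an apical export pump for conjugates, gave log2 fold change 6.34, SE 0.99, adjusted p = 6.35e-05.

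Fat handling genes were also higher. Of 23 genes of chylomicron and triglyceride assembly 17 were higher and 0 lower (median log2 fold change 2.34). DGAT1, which makes the last bond of triglyceride, stood at 427, 487, 466, 175 and 573 CPM in ileum grafts 1 to 5, against 43.5, 45.1, 58.3, 58.4 and 36.03 CPM in native bladders 1 to 5 (log2 fold change 3.14, SE 0.33, adjusted p = 6.27e-07). PLIN3, a coat protein of lipid droplets, gave log2 fold change 2.34, SE 0.32, adjusted p = 1.26e-05. APOA1, the main protein of high-density lipoprotein and a chylomicron component, stood at 4656, 4038, 4394, 586 and 24118 CPM in ileum grafts 1 to 5, against 9.40, 3.92, 5.63, 36.3 and 14.04 CPM in native bladders 1 to 5 (log2 fold change 9.09, SE 1.20, adjusted p = 9.44e-06), lowest in graft 4. In native bladders APOA1 was highest in library 4, the one that stood apart. Of 24 genes of cholesterol synthesis and uptake 9 were higher and 0 lower, and 5 without native library 3 or without native library 5. ABCG5 and ABCG8 together form the pump that returns plant sterols and cholesterol to the lumen. ABCG5 stood at 7.42 to 216 CPM in ileum grafts, against 0.203 to 1.27 CPM in native bladders (log2 fold change 6.58, SE 1.06, adjusted p = 9.70e-05), while ABCG8 was listed at 0 in 4 native bladders and at 29.9, 32.9, 72.6, 3.90 and 155 CPM in ileum grafts 1 to 5 (log2 fold change 10.23, SE 1.40, adjusted p = 0.000113). The synthesis step NSDHL (log2 fold change 1.41, SE 0.22) rose by less.

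Genes of mitochondrial fuel burning were called higher far more often than lower. Of 22 genes of the citric acid cycle and its pyruvate feed 12 were higher and 0 lower (median log2 fold change 0.90). Of 22 genes of fatty acid oxidation and ketone formation 11 were higher and 1 lower (0.96), and of 22 nuclear-encoded subunits of respiratory complexes I to V 10 were higher and 0 lower (0.88). IDH3A, a subunit of isocitrate dehydrogenase, stood at 113, 142, 82.0, 96.8 and 154 CPM in ileum grafts 1 to 5, against 29.9, 30.8, 35.8, 50.7 and 32.1 CPM in native bladders 1 to 5 (log2 fold change 1.71, SE 0.27, adjusted p = 6.30e-05). UQCRC1 of complex III stood at 398 to 850.4 CPM in ileum grafts, against 154 to 297 CPM in native bladders (log2 fold change 1.42, SE 0.24, adjusted p = 0.000153), and COX5A of complex IV at 138 to 433 CPM in ileum grafts, against 91.9 to 119.7 CPM in native bladders (log2 fold change 1.31, SE 0.21, adjusted p = 0.000102). The lowest ileum grafts of UQCRC1, COX5A and IDH3A all lay above the highest native bladder. PCK2 and PCK1 are the mitochondrial and cytosolic enzymes that turn oxaloacetate into phosphoenolpyruvate. PCK2 gave log2 fold change 3.21, SE 0.48, adjusted p = 4.29e-05, and PCK1 log2 fold change 8.41, SE 1.33, adjusted p = 7.78e-05.

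Among oxidation enzymes HADH stood at 113 to 225 CPM in ileum grafts, against 38.3 to 65.0 CPM in native bladders (log2 fold change 1.63, SE 0.25, adjusted p = 5.95e-05), ACADS, which starts the oxidation of short chains, at 117 to 585 CPM in ileum grafts, against 50.8 to 101 CPM in native bladders (log2 fold change 2.11, SE 0.34, adjusted p = 9.22e-05), and ETFDH, which passes their electrons to the respiratory chain, at 42.9 to 103 CPM in ileum grafts, against 18.0 to 31.7 CPM in native bladders (log2 fold change 1.45, SE 0.26, adjusted p = 0.000298). The enzymes that activate long-chain fatty acids moved apart: ACSL5 was at 337, 371, 73.1, 104 and 508 CPM in ileum grafts 1 to 5, against 51.0, 61.8, 49.8, 14.2 and 39.9 CPM in native bladders 1 to 5 (log2 fold change 2.69, SE 0.56, adjusted p = 0.00140), and ACSL1 at 32.0, 14.9, 29.6, 33.9 and 14.03 CPM in ileum grafts 1 to 5, against 143, 71.5, 127, 93.3 and 82.2 CPM in native bladders 1 to 5 (log2 fold change -2.06, SE 0.48, adjusted p = 0.00375). Of 18 peroxisomal genes 3 were higher, 16.7% against 15.0% of all genes tested. Among them PHYH (log2 fold change 1.43, SE 0.37) was no longer called in the 10 libraries alone (adjusted p = 0.0586) or without ileum graft 5 (0.0543). In the 10 libraries alone, 7 citric acid cycle genes and 3 complex subunits were called. The 13 genes of the mitochondrial genome took a share of counts of 13.97% to 33.9% in ileum grafts, against 6.797% to 10.5% in native bladders. Graft 1 held the 33.9%, yet its mean over the nuclear-encoded complex subunits (6.37 log2 CPM) was the lowest of the grafts and within the 6.19 to 7.05 of native bladders. With the 13 genes left out of the library sizes, 1276 genes were higher and 1281 lower.

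Nitrogen genes were led by the enzymes of citrulline synthesis. Of 21 tested genes of citrulline, arginine, glutamine and ammonia handling 10 were higher and 1 lower. CPS1 (ENSPANG00000008478), which fixes ammonia as carbamoyl phosphate, stood at 207, 237, 17.6, 64.0 and 155 CPM in ileum grafts 1 to 5, against 0.0723, 0.203, 0, 0 and 0 CPM in native bladders 1 to 5 (log2 fold change 11.01, SE 1.13, adjusted p = 9.32e-06). It had 9 reads over the 5 native bladders. OTC, which joins carbamoyl phosphate to ornithine, stood at 209, 136, 80.1, 56.7 and 445 CPM in ileum grafts 1 to 5, against 0.325, 0, 0.119, 0 and 0.0773 CPM in native bladders 1 to 5 (log2 fold change 10.76, SE 1.08, adjusted p = 1.06e-05). ALDH18A1, which starts the path from glutamate to ornithine, stood at 95.6 to 261 CPM in ileum grafts, against 29.0 to 41.8 CPM in native bladders (log2 fold change 2.25, SE 0.26, adjusted p = 2.02e-06), and the mitochondrial ornithine carrier SLC25A15 gave log2 fold change 4.49, SE 0.71, adjusted p = 8.07e-05. NAGS makes the activator of CPS1, and it gave log2 fold change 7.27, SE 1.36, adjusted p = 0.000496. The alanine transaminase GPT gave log2 fold change 6.06, SE 0.71, adjusted p = 2.40e-06. The single fall was GLUL, glutamine synthetase, which removes ammonia by making glutamine: it stood at 84.3, 81.7, 75.8, 62.9 and 64.2 CPM in ileum grafts 1 to 5, against 256, 267, 209, 159 and 182 CPM in native bladders 1 to 5 (log2 fold change -1.54, SE 0.26, adjusted p = 0.000162). ASS1, which takes citrulline onward to arginine, gave log2 fold change 1.36, SE 1.06 and did not pass (adjusted p = 0.435).

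Of 23 genes of purine and pyrimidine metabolism 4 were higher and 0 lower, 17.4% against 15.0% of all genes tested, and the 4 are enzymes of breakdown. XDH, xanthine dehydrogenase, which makes uric acid, stood at 2002, 1664, 1103, 397 and 1364 CPM in ileum grafts 1 to 5, against 1.59, 4.15, 2.18, 2.04 and 3.29 CPM in native bladders 1 to 5 (log2 fold change 8.94, SE 1.84, adjusted p = 0.00136). UPP1, uridine phosphorylase, gave log2 fold change 3.45, SE 0.47, adjusted p = 1.46e-05, and TYMP, thymidine phosphorylase, log2 fold change 2.58, SE 0.69, adjusted p = 0.0114. ENTPD8, which cleaves nucleotides at the cell surface, stood at 52.6, 51.7, 54.96, 17.9 and 54.8 CPM in ileum grafts 1 to 5, against 0.434, 0.0290, 0.0793, 0 and 0 CPM in native bladders 1 to 5 (log2 fold change 8.68, SE 1.41, adjusted p = 0.000107). For ENTPD8, 4 of the 5 grafts lay close together and graft 4 lay low. Of the synthesis enzymes CAD gave log2 fold change 0.21, SE 0.23 and PPAT log2 fold change 0.01, SE 0.45, and neither passed.

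Sugar genes rose broadly, 18 of 24 with 2 lower (median log2 fold change 3.68). KHK (ENSPANG00000009447), ketohexokinase, the entry enzyme of fructose breakdown, stood at 424, 336, 723, 99.9 and 1441 CPM in ileum grafts 1 to 5, against 6.18, 4.88, 1.78, 3.69 and 3.05 CPM in native bladders 1 to 5 (log2 fold change 7.27, SE 0.71, adjusted p = 2.23e-07). SORD, which converts sorbitol to fructose, gave log2 fold change 3.62, SE 0.50, adjusted p = 1.58e-05, and TREH, which splits trehalose at the brush border, log2 fold change 5.56, SE 0.76, adjusted p = 1.53e-05. PFKFB4, which sets the signal for glycolysis, stood at 20.4 to 109.6 CPM in ileum grafts, against 5.51 to 8.69 CPM in native bladders (log2 fold change 3.38, SE 0.45, adjusted p = 1.16e-05). The genes that fell were SLC2A1, the widespread glucose transporter (log2 fold change -2.16, SE 0.50, adjusted p = 0.00351), and HK1, the widespread hexokinase (log2 fold change -0.89, SE 0.26, adjusted p = 0.0218). HK1 did not pass without ileum graft 2 (adjusted p = 0.0506) or graft 5 (0.0714). Ileum graft 4 was low for the whole list, with a mean of 4.71 log2 CPM against 6.77 to 7.39 in the other grafts.

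Ion and water carriers changed in both directions. Of 35 tested genes of chloride, bicarbonate, sodium and potassium transport, with the urea channel counted in, 19 were higher and 4 lower. SLC26A3, the chloride and bicarbonate exchanger of the brush border, stood at 565, 119, 177, 31.8 and 379 CPM in ileum grafts 1 to 5, against 0.650, 0.407, 0.436, 0.4996 and 0.464 CPM in native bladders 1 to 5 (log2 fold change 9.004, SE 1.20, adjusted p = 1.10e-05). SLC26A6, another anion exchanger that also carries oxalate, gave log2 fold change 2.61, SE 0.33, adjusted p = 6.09e-06. SLC9A3, the sodium and proton exchanger, stood at 287, 572, 175, 138 and 83.3 CPM in ileum grafts 1 to 5, against 10.3, 4.15, 13.999, 5.96 and 11.6 CPM in native bladders 1 to 5 (log2 fold change 4.77, SE 0.62, adjusted p = 8.83e-06). GUCY2C, the receptor of the fluid-regulating peptides guanylin and uroguanylin, gave log2 fold change 4.75, SE 0.70, adjusted p = 3.65e-05. The potassium channel KCNJ13 stood at 20.1 to 131 CPM in ileum grafts, against 0 to 0.581 CPM in native bladders (log2 fold change 8.07, SE 1.17, adjusted p = 2.73e-05).

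Among lower genes with a symbol outside the HOX clusters, the smallest p belonged to a urea carrier. SLC14A1 (ENSPANG00000010058), the urea transporter of red cells and urothelium, stood at 1.21, 2.71, 2.14, 0.951 and 0.349 CPM in ileum grafts 1 to 5, against 207, 151, 244, 88.8 and 167 CPM in native bladders 1 to 5 (log2 fold change -6.86, SE 0.66, adjusted p = 1.75e-07), and the lowest native bladder, library 4, held more than every graft by far. SCNN1B, the beta subunit of the epithelial sodium channel, stood at 16.2, 2.71, 9.01, 1.24 and 1.90 CPM in ileum grafts 1 to 5, against 68.5, 71.1, 113, 14.03 and 76.6 CPM in native bladders 1 to 5 (log2 fold change -3.46, SE 0.81, adjusted p = 0.00414); graft 1 overlapped native library 4. SCNN1A, the alpha subunit, gave log2 fold change -0.77, SE 0.82 and did not pass (adjusted p = 0.591), nor did SCNN1G (log2 fold change -1.36, SE 1.38, adjusted p = 0.569). Over all solute carrier genes 64 of 314 tested were higher and 36 lower.

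Of 29 genes handling iron, zinc, copper and calcium 7 were higher and 0 lower, and DESeq2 called 14. SLC39A5, a zinc importer, stood at 40.9 to 257 CPM in ileum grafts, against 0.952 to 3.36 CPM in native bladders (log2 fold change 6.11, SE 0.65, adjusted p = 6.27e-07), and HEPH, the copper oxidase that lets iron leave the enterocyte, at 76.4 to 339 CPM in ileum grafts, against 14.1 to 43.2 CPM in native bladders (log2 fold change 3.25, SE 0.40, adjusted p = 3.69e-06). VDR, the vitamin D receptor, gave log2 fold change 3.65, SE 0.67, adjusted p = 0.000387, and TRPM6, a magnesium channel, log2 fold change 5.29, SE 1.004, adjusted p = 0.000558. SLC40A1, the iron exporter that works with HEPH, gave log2 fold change -0.01, SE 0.56 and did not pass. Of 21 vitamin and cofactor genes 6 were higher and 5 lower. The B12 receptor is made of cubilin and amnionless. CUBN stood at 582, 9.53, 457, 1.47 and 744 CPM in ileum grafts 1 to 5, against 0.397, 0.523, 0.317, 0 and 2.17 CPM in native bladders 1 to 5 (log2 fold change 9.04, SE 1.52, adjusted p = 0.000148). Grafts 1, 3 and 5 held at least 457 CPM of CUBN and grafts 2 and 4 under 10, though all 5 lay above or near the native bladders at most 2.17 CPM. AMN, its anchor, varied less over the grafts, at 335, 225, 565, 43.4 and 712 CPM in ileum grafts 1 to 5, against 24.0, 16.7, 35.97, 5.11 and 24.1 CPM in native bladders 1 to 5 (log2 fold change 4.15, SE 0.77, adjusted p = 0.000414). Both SLC19A2, the thiamine carrier (log2 fold change -2.72, SE 0.51), and SLC46A1, the folate carrier (log2 fold change -2.56, SE 0.50), were lower.

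Genes that modify foreign compounds changed in both directions, more of them higher. Of 27 phase 1 and alcohol-oxidising genes 14 were higher and 2 lower, and of 17 phase 2 conjugating genes 8 were higher and 2 lower. AOC1, diamine oxidase, which breaks down dietary histamine, stood at 385, 179, 372, 74.8 and 463 CPM in ileum grafts 1 to 5, against 0.217, 0.116, 0.159, 0 and 0.155 CPM in native bladders 1 to 5 (log2 fold change 11.10, SE 0.86, adjusted p = 1.17e-06). CYP4F2, an omega-hydroxylase of fatty acids and vitamins E and K, stood at 134 to 1749 CPM in ileum grafts, against 0.309 to 1.301 CPM in native bladders (log2 fold change 10.11, SE 1.31, adjusted p = 7.63e-06). CYP2S1 gave log2 fold change 6.38, SE 0.70, adjusted p = 1.07e-06, and CYP27A1, the mitochondrial sterol 27-hydroxylase, log2 fold change 3.45, SE 0.47, adjusted p = 1.46e-05. Of the P450 genes that fell, CYP39A1, an oxysterol hydroxylase, had the smallest p and stood at 6.34, 13.8, 11.8, 7.61 and 12.2 CPM in ileum grafts 1 to 5, against 36.2, 35.5, 52.3, 26.9 and 45.9 CPM in native bladders 1 to 5 (log2 fold change -1.93, SE 0.27, adjusted p = 1.58e-05). Over all 39 P450 genes tested, 10 were higher and 4 lower.

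Among conjugating enzymes the sulfotransferase SULT1B1 gave log2 fold change 7.97, SE 1.29, adjusted p = 0.000145, the acetyltransferase NAT2 log2 fold change 7.16, SE 1.33, adjusted p = 0.000602 and the glucuronosyltransferase UGT2A3 log2 fold change 6.91, SE 1.38, adjusted p = 0.000963. GSTM3, a glutathione transferase, went the other way, at 9.20, 6.22, 21.9, 10.6 and 51.4 CPM in ileum grafts 1 to 5, against 197, 336, 390.0, 97.0 and 257 CPM in native bladders 1 to 5 (log2 fold change -3.68, SE 0.79, adjusted p = 0.00189). Of 14 genes of drug and metabolite export 5 were higher and 0 lower, and DESeq2 called 8. ABCB1 (P-glycoprotein) stood at 982, 440.2, 308, 154 and 1182 CPM in ileum grafts 1 to 5, against 36.1, 58.7, 30.4, 26.0 and 30.5 CPM in native bladders 1 to 5 (log2 fold change 4.08, SE 0.48, adjusted p = 2.31e-06), and ABCG2, which also exports urate, at 58.6 to 652 CPM in ileum grafts, against 12.1 to 26.7 CPM in native bladders (log2 fold change 3.83, SE 0.50, adjusted p = 7.77e-06). SLC15A1, the peptide carrier that also takes up beta-lactam drugs, gave log2 fold change 9.41, SE 0.85, adjusted p = 4.48e-06.

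**Figure D3:**
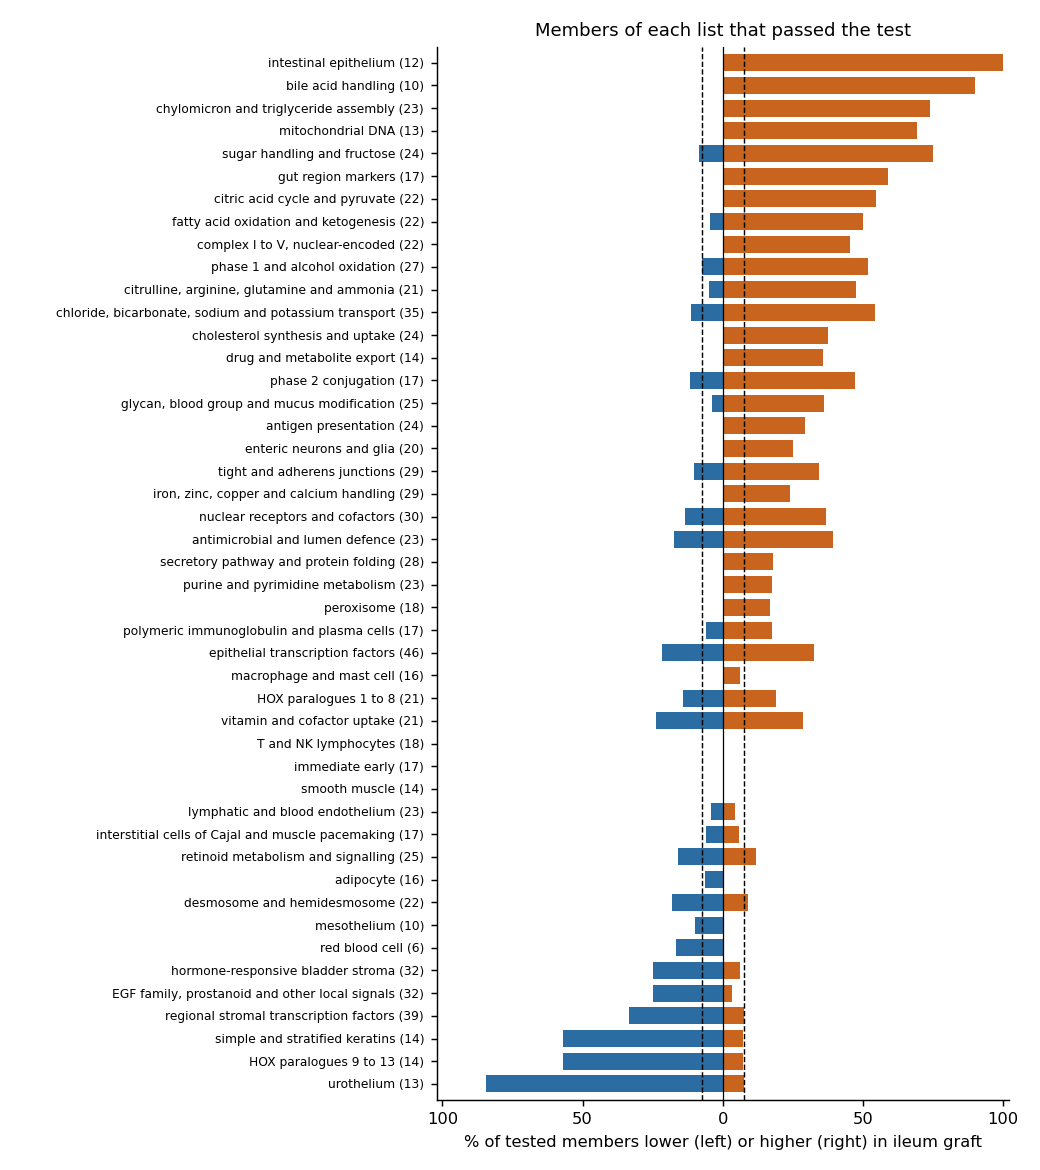
Percent of tested members of each of the 46 lists (number tested in brackets) that were higher (right, orange) or lower (left, blue) in ileum graft at adjusted p under 0.05. Dashed lines mark 7.72% and 7.33%, the shares over all 17177 genes; metabolic and carrier lists lie at the top, posterior HOX, keratin and urothelial lists at the bottom.

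HOX genes mark position along the body axis. Posterior HOX genes fell and a run of HOXC genes rose. Of 14 tested genes of paralogue groups 9 to 13, 8 were lower and 1 higher (median log2 fold change -4.37); of 21 of groups 1 to 8, 4 were higher and 3 lower. HOXA13 (ENSPANG00000020537), which patterns hindgut and urogenital sinus, stood at 0, 0.451, 0, 0.0475 and 0.200 CPM in ileum grafts 1 to 5, against 69.1, 59.5, 97.2, 125 and 104 CPM in native bladders 1 to 5 (log2 fold change -9.31, SE 0.68, adjusted p = 2.22e-09), the smallest p of any lower gene with a symbol. HOXD13 had no read in any graft and stood at 15.3, 11.7, 19.6, 84.7 and 20.3 CPM in native bladders 1 to 5, with library 4 far above the others. HOXA11 stood at 0, 1.71, 0, 0 and 0 CPM in ileum grafts 1 to 5, against 32.9, 18.9, 23.8, 59.8 and 34.2 CPM in native bladders 1 to 5 (log2 fold change -6.63, SE 0.96, adjusted p = 2.69e-05), and its few graft reads were all in graft 2. HOXA10 stood at 0 to 3.36 CPM in ileum grafts, against 9.76 to 22.9 CPM in native bladders (log2 fold change -3.27, SE 0.73, adjusted p = 0.00280). HOXA9 passed with log2 fold change -1.96, SE 0.64, adjusted p = 0.0393, and did not pass without ileum graft 2, 3 or 4 or without native library 3, 4 or 5 (adjusted p = 0.0505 to 0.0913).

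The C cluster went the other way. HOXC8 stood at 17.8, 11.98, 62.2, 41.2 and 53.7 CPM in ileum grafts 1 to 5, against 0.434, 0.378, 0.952, 0 and 1.04 CPM in native bladders 1 to 5 (log2 fold change 6.05, SE 0.76, adjusted p = 5.29e-06) and HOXC6 at 18.2, 41.0, 67.7, 26.9 and 48.1 CPM in ileum grafts 1 to 5, against 0.903, 0.668, 2.10, 1.84 and 1.47 CPM in native bladders 1 to 5 (log2 fold change 4.85, SE 0.72, adjusted p = 3.49e-05). HOXC9, the next gene in number, gave log2 fold change 2.86, SE 0.82, adjusted p = 0.0177. HOXC5 (log2 fold change 3.90, SE 1.15, adjusted p = 0.0215) did not pass without ileum graft 3 or without native library 1, 2 or 3 (adjusted p = 0.0503 to 0.0587). HOXC4 (log2 fold change 2.38, SE 0.77, adjusted p = 0.0371) did not pass without ileum graft 3 or without any 1 of the 5 native libraries (adjusted p = 0.0621 to 0.105), nor when blocked by animal (0.0865). HOXC10 gave log2 fold change 0.41, SE 0.83 and did not pass (adjusted p = 0.806). Of the B cluster HOXB13 passed (log2 fold change -5.47, SE 1.70, adjusted p = 0.0289), but not when blocked by animal (adjusted p = 0.102) and not without ileum graft 1, 3, 4 or 5 or without native library 3 or 5 (adjusted p = 0.0543 to 0.0618). For groups 1 to 8 the number of calls was 4 without native library 1, 4 without native library 3 and 4 when blocked by animal. For groups 9 to 13, 5 passed in the 10 libraries alone, 1 of them higher.

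**Figure D4:**
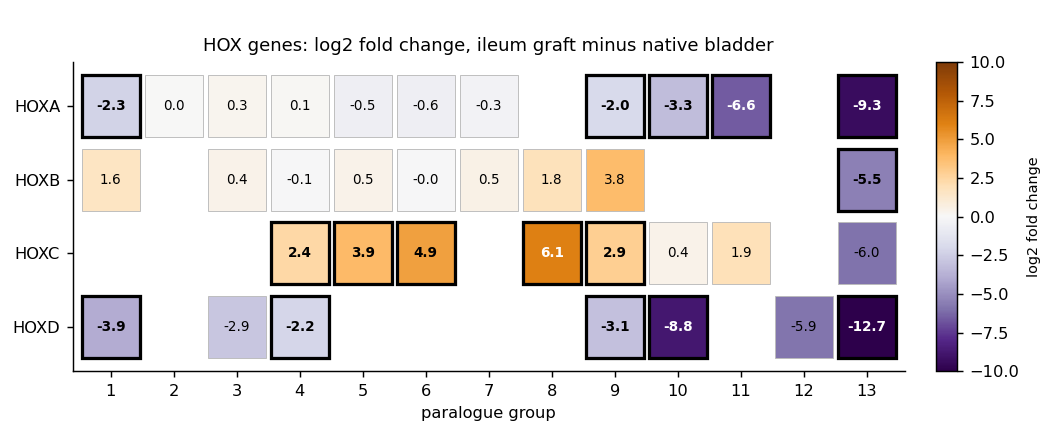
Log2 fold change (ileum graft minus native bladder) of each tested HOX gene by cluster (rows) and paralogue group (columns). Bold values in thick frames passed at adjusted p under 0.05; the A and D clusters fell at groups 9 to 13, and the C cluster rose at groups 4, 5, 6, 8 and 9.

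Other regional transcription factors of the wall fell with the posterior HOX genes. Of 39 tested, 13 were lower and 3 higher (median log2 fold change -0.95). MSX2 stood at 0, 3.86, 1.70, 0.570 and 0.449 CPM in ileum grafts 1 to 5, against 43.1, 24.8, 80.3, 40.8 and 59.2 CPM in native bladders 1 to 5 (log2 fold change -5.23, SE 0.76, adjusted p = 2.61e-05), PITX1, a factor of hindlimb and pelvic mesoderm, at 3.32, 3.96, 0.876, 11.2 and 9.93 CPM in ileum grafts 1 to 5, against 79.9, 87.7, 86.1, 267 and 175 CPM in native bladders 1 to 5 (log2 fold change -4.57, SE 0.72, adjusted p = 7.05e-05), and TBX2 at 6.34, 29.0, 22.1, 7.94 and 12.5 CPM in ileum grafts 1 to 5, against 149, 82.3, 189, 71.8 and 166 CPM in native bladders 1 to 5 (log2 fold change -3.08, SE 0.52, adjusted p = 0.000155). NKX2-3, a factor of gut mesenchyme and its vessels, gave log2 fold change 7.92, SE 1.55, adjusted p = 0.000801. In the T-box family 5 of 13 were lower and 1 higher.

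Epithelial transcription factors changed over, 15 of 46 higher and 10 lower. HNF4A, a nuclear receptor that drives enterocyte genes, stood at 182, 65.8, 48.5, 36.4 and 54.9 CPM in ileum grafts 1 to 5, against 0.0361, 0.959, 0, 0 and 0.309 CPM in native bladders 1 to 5 (log2 fold change 8.14, SE 1.27, adjusted p = 0.000100). NR5A2, a nuclear receptor of gut and liver, gave log2 fold change 5.45, SE 0.75, adjusted p = 1.54e-05. Of the lower ones FOXC1 stood at 0 to 3.57 CPM in ileum grafts, against 6.92 to 40.3 CPM in native bladders (log2 fold change -4.003, SE 0.73, adjusted p = 0.000356), and GATA3, a factor of urothelium and breast, gave log2 fold change -4.64, SE 0.80, adjusted p = 0.000210. ELF3 (-0.40) and KLF5 (0.73), which many simple and stratified epithelia share, did not pass. Native library 4 was far below the other native bladders for KLF5 (37.4 CPM, others 234 to 303). Of 30 nuclear receptors and cofactors 11 were higher and 4 lower. Receptors of lipids were higher, NR1H3 (LXR-alpha) at 66.4 to 148 CPM in ileum grafts, against 9.68 to 19.6 CPM in native bladders (log2 fold change 2.90, SE 0.38, adjusted p = 8.83e-06) and PPARA at 8.27 to 45.6 CPM in ileum grafts, against 1.81 to 3.93 CPM in native bladders (log2 fold change 2.81, SE 0.43, adjusted p = 5.81e-05). PGR, the progesterone receptor, had no read in the grafts and stood at 1.84, 1.48, 1.27, 1.23 and 0.503 CPM in native bladders 1 to 5, at least 42.8-fold lower in ileum with ileum set at that floor. RARB, a retinoic acid receptor, fell as well (log2 fold change -3.07, SE 0.65, adjusted p = 0.00168). The mineralocorticoid receptor NR3C2 rose (log2 fold change 2.42, SE 0.45, adjusted p = 0.000444), and the glucocorticoid receptor NR3C1 gave log2 fold change -0.66, SE 0.57 and did not pass (adjusted p = 0.489).

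Retinoid genes, 3 of 25 higher and 4 lower, changed in carriers, enzymes and receptors. RARG, a retinoic acid receptor, stood at 4.73, 17.1, 30.3, 9.03 and 12.1 CPM in ileum grafts 1 to 5, against 115, 65.8, 128, 76.5 and 94.996 CPM in native bladders 1 to 5 (log2 fold change -2.71, SE 0.40, adjusted p = 3.39e-05). RDH16, a retinol dehydrogenase, was at 42.7, 4.56, 67.4, 3.04 and 110.4 CPM in ileum grafts 1 to 5, against 2.49, 1.57, 2.50, 2.61 and 3.21 CPM in native bladders 1 to 5 (log2 fold change 4.20, SE 0.63, adjusted p = 4.02e-05), and like CUBN it was low in grafts 2 and 4.

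Junction genes changed in both directions. Of 29 genes of tight and adherens junctions and of links between microvilli 10 were higher and 3 lower. CLDN15 (ENSPANG00000004771), a claudin that forms sodium-permeable pores, stood at 172, 228, 314, 124 and 351 CPM in ileum grafts 1 to 5, against 11.1, 13.1, 5.67, 10.4 and 13.61 CPM in native bladders 1 to 5 (log2 fold change 4.46, SE 0.38, adjusted p = 1.50e-08). CDH17, the cadherin of gut lining, gave log2 fold change 7.39, SE 0.97, adjusted p = 8.83e-06, and CDHR5, which joins the tips of microvilli, log2 fold change 8.99, SE 1.23, adjusted p = 1.46e-05. MYO1A, the motor that ties their membrane to the core, stood at 191 to 1670.2 CPM in ileum grafts, against 0.991 to 2.44 CPM in native bladders (log2 fold change 8.96, SE 0.84, adjusted p = 1.01e-07). CLDN1, a claudin of tight barriers, stood at 0.682 to 5.22 CPM in ileum grafts, against 2.15 to 23.4 CPM in native bladders (log2 fold change -2.56, SE 0.57, adjusted p = 0.00256). OCLN (-0.37), TJP1 (-0.25) and CDH1 (0.39), which tight epithelia hold in common, did not pass. Native library 4 was far below the other native bladders for CDH1 (41.5 CPM, others 334 to 548) and OCLN (4.50 CPM, others 39.9 to 71.6).

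Of 14 keratins listed 8 were lower and 1 higher. KRT7 stood at 6.34, 56.2, 6.86, 6.61 and 20.7 CPM in ileum grafts 1 to 5, against 960.4, 609, 1928, 159.6 and 683 CPM in native bladders 1 to 5 (log2 fold change -5.49, SE 0.92, adjusted p = 0.000146), KRT23 gave log2 fold change -6.05, SE 1.08, adjusted p = 0.000279, and the rise was KRT20, at 479 to 2338 CPM in ileum grafts, against 4.11 to 11.4 CPM in native bladders (log2 fold change 7.45, SE 1.17, adjusted p = 7.53e-05). Of 22 genes of desmosomes and hemidesmosomes 4 were lower and 2 higher, and 1 and 2 in the 10 libraries alone. PPL, periplakin, stood at 26.3, 10.6, 25.0, 4.09 and 10.4 CPM in ileum grafts 1 to 5, against 122, 90.4, 184, 44.3 and 156 CPM in native bladders 1 to 5 (log2 fold change -2.96, SE 0.48, adjusted p = 9.07e-05). PKP1, a plakophilin of stratified epithelium, was at 0 in native library 4 and at 19.8 to 53.7 CPM in the other native bladders, against 0 to 0.401 CPM in ileum grafts (log2 fold change -8.21, SE 1.40, adjusted p = 0.000174). DSC2, a desmocollin of simple epithelium, rose to 32.3 to 215 CPM in ileum grafts, against 0.696 to 10.1 CPM in native bladders (log2 fold change 4.97, SE 0.87, adjusted p = 0.000218). DSP (0.06), DSG2 (0.15) and JUP (0.39), parts of every desmosome, did not pass. Native library 4 was far below the other native bladders for DSP (25.1 CPM, others 319 to 489) and DSG2 (22.8 CPM, others 208 to 482).

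Of 25 genes of glycan and mucus modification 9 were higher and 1 lower. B3GNT7, which extends keratan-type chains, stood at 173, 157, 143, 50.8 and 124 CPM in ileum grafts 1 to 5, against 2.999, 9.41, 2.93, 3.11 and 1.66 CPM in native bladders 1 to 5 (log2 fold change 5.003, SE 0.73, adjusted p = 2.84e-05), and GAL3ST1, a sulfotransferase of glycolipids, gave log2 fold change 6.17, SE 0.86, adjusted p = 1.75e-05. MGAT4B, which branches N-glycans, stood at 229 to 920.2 CPM in ileum grafts, against 93.0 to 189 CPM in native bladders (log2 fold change 2.08, SE 0.34, adjusted p = 0.000129). Sialyltransferases split: ST6GALNAC6 rose (log2 fold change 2.24, SE 0.40, adjusted p = 0.000279) and ST3GAL1 fell (log2 fold change -2.80, SE 0.59, adjusted p = 0.00174). Membrane mucins split too. MUC3A stood at 2256, 354, 245, 44.0 and 161 CPM in ileum grafts 1 to 5, against 0.614, 0.349, 0.119, 0.538 and 1.16 CPM in native bladders 1 to 5 (log2 fold change 10.10, SE 1.33, adjusted p = 3.73e-05), and MUC20 at 1.26, 6.92, 1.41, 0.0475 and 0.998 CPM in ileum grafts 1 to 5, against 225, 383, 329.5, 20.1 and 248 CPM in native bladders 1 to 5 (log2 fold change -6.82, SE 1.18, adjusted p = 0.000198).

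Some fibroblast genes of the stroma were lower. Of 32 genes fixed as a list of hormone-responsive bladder stroma 8 were lower and 2 higher, with 5 lower and 1 higher without native library 1 and 5 lower and 2 higher without native library 4. PI16, a marker of adventitial fibroblasts, stood at 3.27, 0.953, 33.8, 10.98 and 24.7 CPM in ileum grafts 1 to 5, against 575, 278, 245, 1916 and 784 CPM in native bladders 1 to 5 (log2 fold change -5.69, SE 1.07, adjusted p = 0.000524). Native library 4 was the highest for both PI16 and DCN. TSC22D3, a gene that glucocorticoids induce, stood at 10.6 to 39.2 CPM in ileum grafts, against 57.0 to 92.9 CPM in native bladders (log2 fold change -1.68, SE 0.37, adjusted p = 0.00254). The list's strongest rise, DPP4, is a peptidase of the brush border as well as of fibroblasts, and it stood at 22.8 to 369.8 CPM in ileum grafts, against 2.74 to 8.57 CPM in native bladders (log2 fold change 5.16, SE 0.81, adjusted p = 6.72e-05). Of 43 collagen genes 5 were lower and 1 higher, 14% against 15.0% of all genes tested, and 9 were lower without ileum graft 2. COL4A5, a basement membrane chain, stood at 11.01, 7.82, 2.34, 7.70 and 5.69 CPM in ileum grafts 1 to 5, against 89.4, 34.0, 37.9, 69.1 and 70.7 CPM in native bladders 1 to 5 (log2 fold change -3.12, SE 0.46, adjusted p = 3.78e-05), and its partner COL4A6 gave log2 fold change -3.70, SE 0.75, adjusted p = 0.00110. ITGA11, the collagen receptor of fibroblasts, gave log2 fold change -2.15, SE 0.46, adjusted p = 0.00183. ABCA9, a lipid transporter of the ABC family, gave log2 fold change -4.76, SE 0.95, adjusted p = 0.000981, and SEMA3C, a secreted guidance protein, log2 fold change -2.01, SE 0.39, adjusted p = 0.000654, whereas SEMA6A, a membrane-bound relative, rose (log2 fold change 3.11, SE 0.47, adjusted p = 4.50e-05).

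Of 32 genes of local signals 8 were lower and 1 higher, and 23 did not pass. HPGD, which inactivates prostaglandins, stood at 30.8, 15.0, 11.1, 4.99 and 37.1 CPM in ileum grafts 1 to 5, against 370.2, 368.5, 298, 37.1 and 373 CPM in native bladders 1 to 5 (log2 fold change -3.87, SE 0.80, adjusted p = 0.00142). PTGES, which makes prostaglandin E, stood at 1.01, 12.2, 7.01, 3.90 and 6.19 CPM in ileum grafts 1 to 5, against 29.8, 40.3, 40.1, 41.2 and 25.8 CPM in native bladders 1 to 5 (log2 fold change -2.55, SE 0.55, adjusted p = 0.00196). PTGES and HPGD both fell, though for HPGD graft 5 met native library 4 at 37.1 CPM. ALOX15B, a lipoxygenase, had no read in the grafts and was at least 64.2-fold lower against the floor. The growth factor receptor FGFR3 stood at 12.5 to 44.9 CPM in ileum grafts, against 18.9 to 512 CPM in native bladders (log2 fold change -3.50, SE 0.82, adjusted p = 0.00411).

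**Figure D5:**
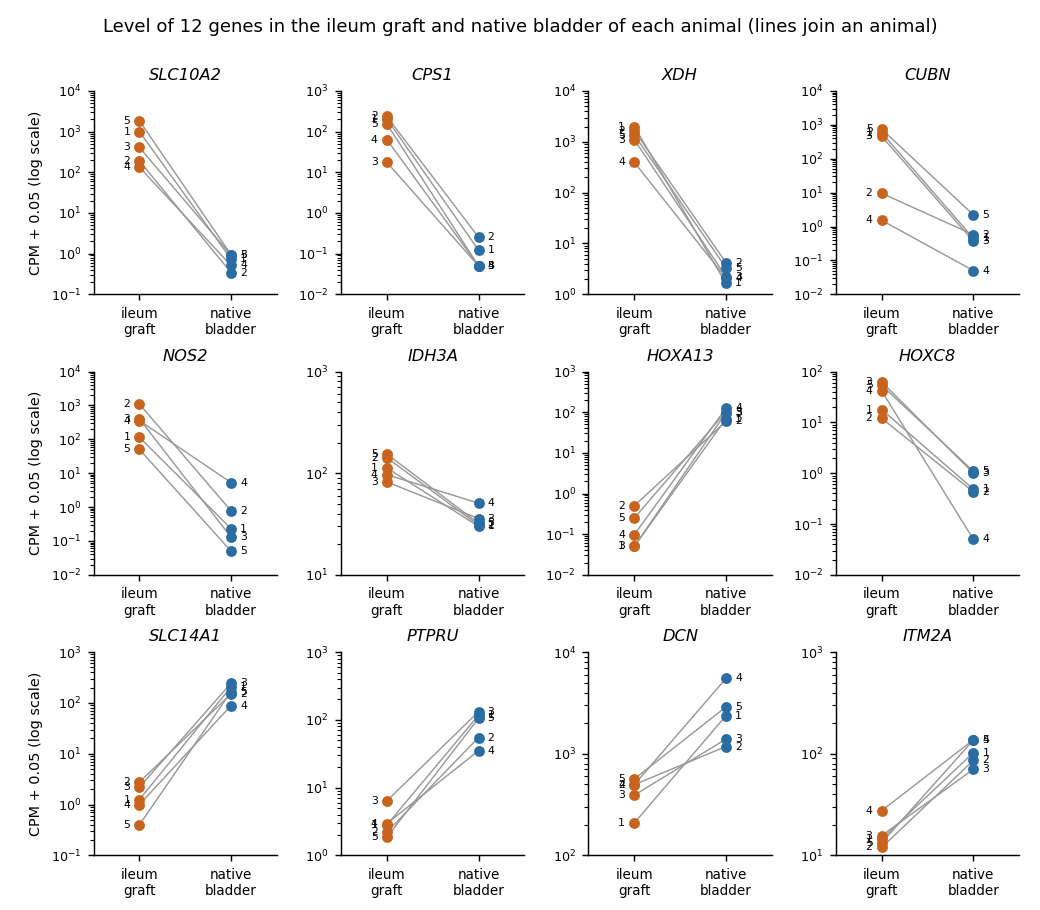
CPM plus 0.05 on a log axis of 12 genes in the ileum graft (orange, left) and native bladder (blue, right) of each animal, whose number stands at the point and whose values a line joins. CUBN is low and NOS2 high in grafts 2 and 4 relative to grafts 1 and 5, and IDH3A, DCN and ITM2A change less than the others, with no overlap.

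Defence genes changed in both directions. Of 23 antimicrobial and lumen defence genes 9 were higher and 4 lower. NOS2, the inducible nitric oxide synthase, stood at 114, 1095, 401, 357 and 50.3 CPM in ileum grafts 1 to 5, against 0.181, 0.726, 0.0793, 5.23 and 0 CPM in native bladders 1 to 5 (log2 fold change 8.34, SE 1.39, adjusted p = 0.000191), highest in graft 2. Of 24 antigen presentation genes 7 were higher and 0 lower, but the count was 4 without ileum graft 5 or without any 1 of native libraries 1, 3 and 5, 11 when blocked by animal, and 12 without native library 2. BTNL3, a butyrophilin-like protein of gut epithelium that gamma delta T cells recognise, stood at 675, 314, 234, 70.6 and 404 CPM in ileum grafts 1 to 5, against 5.31, 3.81, 4.20, 1.65 and 5.03 CPM in native bladders 1 to 5 (log2 fold change 6.41, SE 0.86, adjusted p = 1.13e-05). ERAP2, a peptide-trimming enzyme, stood at 65.4 to 516 CPM in ileum grafts, against 3.84 to 42.1 CPM in native bladders (log2 fold change 3.45, SE 0.65, adjusted p = 0.000532), and PSMB9, a subunit of the immunoproteasome, at 103 to 253 CPM in ileum grafts, against 17.4 to 95.2 CPM in native bladders (log2 fold change 2.01, SE 0.49, adjusted p = 0.00555). Native library 2 held the most PSMB9 of the native bladders. HHLA2, a checkpoint ligand, gave log2 fold change 5.73, SE 1.38, adjusted p = 0.00526.

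Of 17 genes of plasma cells and immunoglobulin export 3 were higher and 1 lower, and 1 and 1 without ileum graft 2 or 4, or without native library 1, 3 or 5. CCL25, the chemokine that draws gut-homing lymphocytes, stood at 507, 1031, 430.2, 374 and 543 CPM in ileum grafts 1 to 5, against 17.6, 18.2, 39.5, 15.4 and 11.4 CPM in native bladders 1 to 5 (log2 fold change 4.82, SE 0.62, adjusted p = 6.64e-06). Its receptor CCR9 gave log2 fold change 4.40, SE 1.68 and did not pass (adjusted p = 0.0792). PIGR, which carries immunoglobulin A across an epithelium, gave log2 fold change 0.32, SE 1.40 (adjusted p = 0.918). Of 18 T and natural killer cell genes edgeR called 0, with 1 at an unadjusted p under 0.05 and 1 called by DESeq2. Among 16 genes of macrophages and mast cells CD68 was the only call, at 36.2 to 100.4 CPM in ileum grafts, against 10.5 to 32.3 CPM in native bladders (log2 fold change 1.82, SE 0.44, adjusted p = 0.00544). Of 19 interferon-induced genes (IFI, IFIT, OAS and MX) 6 were lower, and 3 without ileum graft 5, while DESeq2 called 10. The shares called were 23.5% for plasma cells and immunoglobulin export and 0% for T and natural killer cells. They were 6.25% for macrophages and mast cells and 31.6% for interferon-induced genes, against 15.0% of all genes tested.

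Nerve genes of the gut wall were uneven. Of 20 genes of enteric neurons and glia 5 were higher and 0 lower, 3 when blocked by animal. VIP, a relaxing neuropeptide, stood at 17.5, 0, 45.2, 15.1 and 51.5 CPM in ileum grafts 1 to 5, against 0.650, 0.174, 0, 0.0769 and 0 CPM in native bladders 1 to 5 (log2 fold change 7.11, SE 1.65, adjusted p = 0.00586). VIP had no read in graft 2, and it did not pass when blocked by animal (adjusted p = 0.102). The glial gene SOX10 gave log2 fold change 1.67, SE 1.003 and did not pass. Graft 3 held the highest mean of this list (3.80 log2 CPM) and of smooth muscle genes (11.1), and graft 2 the lowest of both (-1.30 and 6.69).

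Few calls fell among smooth muscle, immediate early and ribosomal protein genes. Of 14 smooth muscle genes edgeR called 0, with 1 at an unadjusted p under 0.05 and 0 in DESeq2, and their median log2 fold change was -0.06, against 0.90 without native library 4. Of 17 immediate early genes edgeR called 0, again with 1 at an unadjusted p under 0.05 and 0 in DESeq2. Of 54 cytosolic ribosomal protein genes 1 was higher and 1 lower, and of 33 tRNA synthetases 1 was higher, while DESeq2 called 4 and 7. Of 372 ZNF zinc finger genes 6 were higher and 37 lower, 11.6% against 15.0% of all genes tested. The family's median log2 fold change was -0.35. ZNF512B fell (log2 fold change -2.43, SE 0.34, adjusted p = 1.78e-05) and ZNF57 rose (log2 fold change 2.22, SE 0.36, adjusted p = 0.000116). Without ileum graft 5 the counts were 4 and 24. Of 28 secretory pathway and protein folding genes 5 were higher, 17.9% against 15.0% of all genes tested, and 1 without ileum graft 2 or without native library 1 or 5. P4HB, protein disulfide isomerase, led them at 1307 to 2680.2 CPM in ileum grafts, against 623 to 895 CPM in native bladders (log2 fold change 1.49, SE 0.30, adjusted p = 0.000953). Of 23 endothelial genes 1 was higher and 1 lower, and 1 was called when blocked by animal. PLVAP, of vessel walls, gave log2 fold change 1.05, SE 0.29, adjusted p = 0.0133, and 0.71 without ileum graft 2 (adjusted p = 0.0791). FABP4, of vessels and fat cells, gave log2 fold change -1.88, SE 0.54, adjusted p = 0.0185, and -0.78 without native library 4 (adjusted p = 0.233) or -1.69 without ileum graft 2 (0.0526). Blocked by animal, neither passed (adjusted p = 0.0551 and 0.0721). Of 16 fat cell genes 1 was lower (median log2 fold change -1.42), whereas without native library 4, which held their highest mean, 1 was higher and 0 lower (median 1.15); 3 were called when blocked by animal and 6 by DESeq2. Of 10 mesothelial genes 1 was lower and 2 were called when blocked by animal, of 6 red blood cell genes 1 was lower, and of 17 genes of interstitial cells of Cajal and muscle pacemaking 1 was higher and 1 lower, and 0 were called when blocked by animal. The shares called in these last lists were 10%, 16.7% and 11.8%, against 15.0% of all genes tested. For smooth muscle and for immediate early genes the share was 0%, for endothelial genes 8.7% and for fat cell genes 6.25%. For cytosolic ribosomal protein genes it was 3.7%, and for tRNA synthetases 3.03%.

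A last comparison set this change beside that of regenerated tissue against native bladder in the SIS and PRS arms, averaged over both, with the difference of the changes tested in the same model. Of 16692 genes that could be tested, 1240 (7.43%) differed, 593 (3.55%) with a more positive change in the ileum arm and 647 (3.88%) with a more negative one. The 485 genes with no read in at least 1 of the 4 scaffold groups were left out of this test by rule. SLC10A2, CPS1, FABP6 and REG1A were among them, so these counts omit several of the largest gains in ileum graft. Several genes of the bladder lining and wall had a more negative change in the ileum arm: the difference of log2 fold changes was -8.94 (adjusted p = 2.07e-08) for HOXA13, -6.66 (adjusted p = 1.79e-06) for SLC14A1 and -8.37 (adjusted p = 0.000872) for PSCA. For stroma, DCN gave a difference of -2.55 (adjusted p = 0.0146). Among genes of metabolism and metal handling the differences were 3.49 (adjusted p = 3.79e-05) for HEPH and 7.72 (adjusted p = 6.62e-07) for KHK. The difference did not pass for ACSL1 (-1.68 (adjusted p = 0.0756)), P4HB (1.12 (adjusted p = 0.0603)), TSC22D3 (-1.29 (adjusted p = 0.0824)) or CD68 (1.68 (adjusted p = 0.0556)). Blocked by animal, 814 genes differed.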

How the data were processed

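The authors deposited a table of whole-number counts of reads per gene for the 28 libraries, with gene symbols and lengths. Per the submitters' processing notes, the tools were featureCounts 1.5.0-p3, HISAT2 2.0.5 and StringTie 1.3.3b; no source used here names the genome build, annotation or strand setting, so overlapping genes, and near-identical copies such as REG1A and REG1B or CYP4F2 and its relatives, may share reads.

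From these counts edgeR 4.0.16 (R 4.3.3) gave TMM scaling, a filter at a minimum count of 10 (filterByExpr), 1 quasi-likelihood model of 28 libraries in 6 groups, and Benjamini-Hochberg adjustment over all 17177 genes tested; the SE is the log2 fold change divided by the root of the F statistic. TPM used the deposited lengths. Leaving libraries out, other scaling, no filter, DESeq2 1.42.0, an animal block, the 10 libraries alone, no mitochondrial genes and a muscle covariate were alternatives, and the steps were tested on simulated data. There 48 of 100 genes with a true log2 fold change of size 2 were recovered, and 88 of 100 with size 4. In the same simulation 2 unchanged genes were called. Its 200 changed genes were drawn from genes at 1 CPM or more, and no animal effect was simulated. The recovery therefore does not cover genes under 1 CPM. A gene that did not pass may thus have changed. Animals are the replicates. Deviations of the tissues of an animal from their group means correlated at 0.0514, 0.258, 0.0768, -0.0116 and 0.11, so the pairing rests on the animal codes.

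Named genes are those with the largest TPM difference or smallest p in each direction and, per list and family, those with the smallest p. Some canonical markers among them are counted only, whereas FABP6, SLC10A2 and KRT20 are given with their values. Other genes, most of them not called, were chosen after their values were seen. The arm, the 46 lists and the 52 families were chosen with earlier results of these data known, and HNF4A was taken off the glycan list, where it did not belong, after its values were seen.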

Additional observations from a re-analysis of the deposited data

Results flagged for a closer look

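For each gene named in the text, each list mean and each library measure, a library was marked when its gap to the nearest of the 4 others exceeded 0.71 of the range of its group of 5, which chance gives in about 1 of 20 groups. Of 438 groups examined 50 held such a library. The genes share their libraries, so these are not separate observations.

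In ileum grafts, graft 4 was marked low for several genes, with the 4 other grafts in brackets. B3GNT7 stood at 50.8 CPM (others 124 to 173), DGAT1 stood at 175 CPM (others 427 to 573) and ENTPD8 stood at 17.9 CPM (others 51.7 to 54.96). JUP stood at 153 CPM (others 401 to 588) and SCNN1A stood at 7.04 CPM (others 25.8 to 40.8). Graft 4 was marked high for others. CAD stood at 97.97 CPM (others 55.05 to 64.1) and PPAT stood at 14.6 CPM (others 2.30 to 3.91). In ileum graft 1, marked low, ABCA9 stood at 0 CPM (others 0.438 to 1.20) and FGF19 stood at 0 CPM (others 0.951 to 1.70) and SLC40A1 stood at 48.3 CPM (others 64.6 to 70.3). In ileum graft 3, marked low, CCR9 stood at 0 CPM (others 3.14 to 12.7). In ileum graft 2, marked high, HOXA11 stood at 1.71 CPM (others 0). In ileum graft 3, marked high, HOXC4 stood at 21.9 CPM (others 5.78 to 8.22). In ileum graft 2, marked low, VIP stood at 0 CPM (others 15.1 to 51.5). Among list means in log2 CPM, graft 4 gave 4.71 for sugar genes (others 6.77 to 7.39) and graft 5 gave 5.82 for nitrogen genes (others 4.81 to 4.95). Mitochondrial genes took 33.9% of counts in ileum graft 1, against 13.97% to 18.4% in the other grafts.

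In native bladders, library 4 was marked low for most of the marked genes, many of them genes of the epithelium, with the 4 other native libraries in brackets. ALOX15B stood at 0 CPM (others 1.31 to 4.28), AOC1 stood at 0 CPM (others 0.116 to 0.217) and BTNL3 stood at 1.65 CPM (others 3.81 to 5.31). CDH1 stood at 41.5 CPM (others 334 to 548), CLDN1 stood at 2.15 CPM (others 17.3 to 23.4) and DSG2 stood at 22.8 CPM (others 208 to 482). DSP stood at 25.1 CPM (others 319 to 489), FGFR3 stood at 18.9 CPM (others 242 to 512) and GPT stood at 0.307 CPM (others 1.35 to 2.42). HOXC8 stood at 0 CPM (others 0.378 to 1.04), HPGD stood at 37.1 CPM (others 298 to 372) and KLF5 stood at 37.4 CPM (others 234 to 303). MUC20 stood at 20.1 CPM (others 225 to 383), OCLN stood at 4.50 CPM (others 39.9 to 71.6) and PIGR stood at 21.9 CPM (others 586 to 2192). PKP1 stood at 0 CPM (others 19.8 to 53.7), SCNN1A stood at 4.30 CPM (others 45.4 to 86.1) and SCNN1B stood at 14.03 CPM (others 68.5 to 112). SCNN1G stood at 0.384 CPM (others 8.69 to 12.9), SLC51A stood at 2.08 CPM (others 4.48 to 5.35) and ST3GAL1 stood at 10.7 CPM (others 53.9 to 84.3). Library 4 was marked high for others. ETFDH stood at 31.7 CPM (others 18.0 to 20.1), FABP4 stood at 513 CPM (others 55.9 to 101) and HOXD13 stood at 84.7 CPM (others 11.7 to 20.3). In native library 5, marked high, ABCG8 stood at 0.232 CPM (others 0). In native library 2, marked low, HADH stood at 38.3 CPM (others 56.7 to 65.0). As list means in log2 CPM, native library 4 gave 0.786 for vitamin uptake (others 1.72 to 2.01), 1.55 for sugar genes (others 2.29 to 2.48), 1.41 for epithelial transcription factors (others 3.26 to 3.396). It also gave 1.95 for junctions (others 3.44 to 3.67), 2.92 for desmosomes (others 5.40 to 6.07) and 3.86 for urothelium (others 6.83 to 7.61). The 50 most abundant genes took 30.4% of counts in native library 4, against 18.5% to 21.6% in the other native libraries.

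The change between ileum graft and native bladder differed from that between scaffold tissue and native bladder at 1240 genes by edgeR's test of the difference.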

How the results depend on the processing

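The number of genes changed, 2585 in the model of 28 libraries, ranged from 1921 (without ileum graft 5) to 2996 (without ileum graft 1) when 1 library was left out, with 969 to 1534 higher and 952 to 1462 lower. It was 1557 with the animal as a block in the 10 Entero libraries alone. Lower genes numbered 814 in the 10 libraries alone and 650 with the block there; higher genes were 1029 and 907. With the block in 28 libraries 2186 genes were called and the median log2 fold change over all genes was -0.16, against -0.03 without it. DESeq2 called 1936 higher and 1522 lower genes. Of the 2585 genes, 1576 were called in all 10 fits without a library and 1086 under every alternative run, and 0 had the opposite sign under any of them while called. Calls over the 46 lists numbered 357 in the model and 307 to 349 without a library. Genes differing from the scaffold change numbered 1867 in DESeq2, 814 with the replicate block, 1952 with the smooth muscle mean as covariate and 938 to 1637 without a library. The block ended the calls of FGF19, VIP, HOXC4, HOXB13, PLVAP and FABP4 among named genes in 28 libraries. In the 10 libraries alone HOXA10 was not called (adjusted p = 0.0694), and with the block there neither were CLDN1 (0.0826), NR3C2 (0.0523) and PGR (0.0867).

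The share of counts in the 50 most abundant genes was 12.2 percentage points higher in ileum grafts than in native bladders (34.4% ± 6.27 and 22.2% ± 4.73, SD, n = 5 each, exact permutation p = 0.0238), but exact sign flips within animals, a paired test chosen after seeing the data, gave p = 0.125 for the 12.2 points, and without the 13 mitochondrial genes the difference was 3.19 points (exact permutation p = 0.27). The mitochondrial share differed by 11.4 points (exact permutation p = 0.00794, the smallest possible), and sign flips gave p = 0.0625, the smallest that 5 animals allow. Without a library the differences were 9.67 to 14.2 and 7.90 to 12.9 points. Genes at 1 CPM or more numbered 13761 ± 360 in ileum grafts and 14142 ± 410 in native bladders (exact permutation p = 0.167).

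Among named genes that did not pass, 6 changed sign, and none was called under any alternative in which it did. Without a library, log2 fold changes ran from -0.088 to 0.62 for CDH1, -0.15 to 0.53 for DSG2, -0.63 to 0.30 for DSP, -0.080 to 0.77 for PIGR, -0.76 to 0.32 for PPAT and -0.22 to 0.51 for SLC40A1. With the animal as a block in 28 and in 10 libraries, PPAT gave -0.30 and -0.34 and SLC40A1 0.26 and 0.22. PPAT gave -0.0059 in the 10 libraries alone, and SLC40A1 gave 0.067 with RLE size factors, 0.067 in DESeq2 and 0.43 with the smooth muscle covariate.

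Depth limits genes under about 1 CPM, where 3 counts over a group are 0.0296 CPM or less. Ileum outside the bladder was not analysed here. The cause of these dependences was not tested.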
